A study of Mus musculus with 12 samples.

Results

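Glutathione S-transferases (GSTs) were followed in cultured primary mouse hepatocytes through 10 genes chosen by name, namely Gsta3, Gsta4, Gstm1, Gstm2, Gstm3, Gstm4, Gstp1, Gstt1, Gstt2 and Mgst1. They are 10 of the 55487 gene identifiers in the files, and all 10 had enough counts to be among the 13535 genes tested. The 12 libraries form 4 groups of 3: control hepatocytes without treatment, hepatocytes given FAC (not written out in the labels), hepatocytes given liproxstatin-1 and then FAC (Lip-1+FAC), and hepatocytes given Mito-TEMPO and then FAC (MT+FAC). Pretreatment was on day 2 of culture. Liproxstatin-1 is a radical-trapping inhibitor of lipid peroxidation, and Mito-TEMPO is a nitroxide antioxidant that is targeted to mitochondria. No group received a scavenger without FAC, so an effect of either scavenger on its own cannot be told apart from its effect on the response to FAC. Strain, age, dose and duration are not given in the sources used here.

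GSTs join the tripeptide glutathione to electrophilic compounds, which makes these more soluble and ready for export from the cell, and several also reduce lipid hydroperoxides. The cytosolic enzymes are dimers and are grouped by sequence into classes, among them alpha (Gsta genes), mu (Gstm), pi (Gstp) and theta (Gstt). Mgst1 belongs to a separate family of membrane proteins and sits in the endoplasmic reticulum and the outer mitochondrial membrane. The liver is one of the tissues richest in these enzymes. Many GST genes are known targets of NRF2, a transcription factor that is released under oxidative or electrophilic stress and binds the antioxidant response element.

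Close copies within a class limit what reads can tell about single genes, and the mu class is shown first. The coding sequences of Gstm1 and Gstm3 were 89.5% identical over 657 bases, and their longest identical run was 112 bases, longer than a read of 100 bases. It spans exons 6 and 7. In Gstm1 it covers chr3:108014945-108015012 and chr3:108014820-108014863, and in Gstm3 chr3:107966279-107966346 and chr3:107966154-107966197 (GRCm38, minus strand). The run is shown with the matching coding bases 389 to 500 of Gstm2 and Gstm4, with capitals for bases that differ from Gstm1.
Gstm1: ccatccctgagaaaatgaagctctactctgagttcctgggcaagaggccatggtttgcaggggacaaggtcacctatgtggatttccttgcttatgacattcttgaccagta
Gstm3: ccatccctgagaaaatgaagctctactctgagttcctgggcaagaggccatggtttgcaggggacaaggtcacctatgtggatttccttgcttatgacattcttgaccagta
Gstm2: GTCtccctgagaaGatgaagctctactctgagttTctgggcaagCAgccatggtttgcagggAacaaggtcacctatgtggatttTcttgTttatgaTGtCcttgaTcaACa
Gstm4: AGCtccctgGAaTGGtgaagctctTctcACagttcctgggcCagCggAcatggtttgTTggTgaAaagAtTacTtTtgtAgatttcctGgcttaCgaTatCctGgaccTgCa
Gstm2 differed from Gstm1 at 16 of these 112 bases and Gstm4 at 30. A read lying wholly inside the run cannot by itself be assigned to Gstm1 or Gstm3, though its mate outside the run may place the pair. Pairs that map to several places enter no gene's count in these files, and how many were lost is not known for single genes. Over whole transcripts, 13.8% of the 100-base windows of Gstm3 and 7.73% of those of Gstm1 occurred in another gene, against 0.622% for Gstm2 and 0 for Gstm4.

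The pi class was affected more strongly, because 52.8% of the windows of Gstp1 also occurred in Gstp2 or the pseudogene Gstp-ps, and the Gstp1 and Gstp2 coding sequences were 98.1% identical with a shared run of 303 bases. Counts of Gstp1 may therefore be too low by an unknown amount, and the same holds for Gstm3 and Gstm1, which share fewer windows. Gsta3, Gsta4, Gstm4, Gstt1, Gstt2 and Mgst1 had no shared window. The alpha pair Gsta3 and Gsta4 was 66.2% identical in coding sequence, and the theta pair Gstt1 and Gstt2 62.5%. No exon of the 10 genes overlapped an exon of another annotated gene. Multimapping reads moved with the groups, at 5.53% to 5.94% of reads in control, 5.85% to 6.23% in FAC, 4.93% to 5.19% in Lip-1+FAC and 4.88% to 5.05% in MT+FAC, so that all pretreated libraries lay below all others. The part of this in the results for Gstp1, Gstm1 and Gstm3 was not tested.

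Promoter sequences were searched because the group of genes described below rose together with both scavengers. RefSeq promoters of GRCm38.p6, from 250 bases before to 50 after each start, were matched for 8 of the 10 genes (11 promoters), and not for Gsta4 and Gstt2. The core of the antioxidant response element, TGACNNNGC on either strand, occurred in 2 of these 8 genes, Gsta3 and Mgst1, and in 2 of the 11 promoters. Mgst1 had 2 promoters, of which only 1 held the core. Over the whole table it occurred in 4071 of 32851 promoters (12.4%), or 3781 of 27025 genes (14.0%). The 250 bases before the start of the matching promoter of each gene are shown, with the matching bases in capitals (Gsta3 chr1:21240335-21240584, plus strand, match at -121. Mgst1 chr6:138140277-138140526, plus strand, match at -56 and on the opposite strand).
Gsta3: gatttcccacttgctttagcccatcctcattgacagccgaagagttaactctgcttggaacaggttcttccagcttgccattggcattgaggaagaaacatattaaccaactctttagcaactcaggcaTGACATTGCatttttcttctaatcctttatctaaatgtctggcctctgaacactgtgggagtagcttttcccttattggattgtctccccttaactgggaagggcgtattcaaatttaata
Mgst1: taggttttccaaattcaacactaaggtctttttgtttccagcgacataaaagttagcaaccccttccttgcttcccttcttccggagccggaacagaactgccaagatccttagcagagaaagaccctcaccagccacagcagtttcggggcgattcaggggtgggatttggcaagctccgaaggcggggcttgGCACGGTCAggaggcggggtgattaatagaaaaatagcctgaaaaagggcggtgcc
A match describes letters only and is no measured binding site. The windows of Gstm3 and Gstm4, which had the largest rises with the scavengers, did not hold these letters.

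Gene-assigned counts per library lay between 22991598 and 31683376, except for FAC replicate 2 with 52529278, whose file is marked as combined. The 10 genes had 423 (Gstt2) to 150406 (Gstm1) counts per library. The labels do not say whether replicates came from separate animals or cultures, so p-values measure the spread between these libraries, which may be technical. The 10 hepatocyte markers summed to 54546 to 58314 CPM in control, 49600 to 52735 in FAC, 54842 to 60579 in Lip-1+FAC and 59532 to 60030 in MT+FAC, where CPM is the count scaled to the library size after TMM normalization. The FAC libraries were below all others. Trf made up most of this sum, and the markers did not move as one: with FAC 4 were lower, among them Cps1 (log2 change -1.25, adjusted p = 0.000191) and Cyp3a11 (-0.70, adjusted p = 6.5e-06), 2 were higher and 4 were not called, and with either scavenger against FAC 3 were higher and 5 lower. Markers of other liver cells were much lower but moved with the groups as well. The 10 Kupffer cell and macrophage markers summed to 229 to 263 CPM in control, 294 to 328 in FAC, 123 to 151.5 in Lip-1+FAC and 148.025 to 181 in MT+FAC. Cd68 alone made up most of that sum, at a mean of 226, 295, 124 and 145 CPM in the same order, and the other macrophage markers moved in different ways: C1qb averaged 2.58, 2.65, 1.47 and 1.85 CPM, Lyz2 3.49, 2.84, 4.38 and 4.36, and Clec4f 1.10, 0.50, 0.91 and 1.17. The 9 stellate cell markers summed to 21.3 to 29.1, 30.6 to 39.4, 15.1 to 18.4 and 17.2 to 22.2 CPM in the same order, carried mainly by Reln (means of 7.45, 16.0, 4.53 and 5.23 CPM) and Acta2 (9.11, 12.1, 5.06 and 6.45), while Dcn (3.55, 2.34, 2.61 and 2.42) was lower with FAC. The 8 cholangiocyte markers summed to 81.3 to 93.5, 112 to 143.5, 127 to 138 and 123 to 163. This sum was carried in the pretreated groups by 1 gene, Spp1, with means of 40.7, 43.6, 101 and 103 CPM, whereas Sox9 (17.4, 53.4, 12.006 and 15.0 CPM) and Krt19 (3.96, 9.96, 1.58 and 2.70 CPM) were higher with FAC and lower than FAC with either scavenger. The 8 endothelial markers summed to 38.6 to 39.99, 36.8 to 37.5, 29.3 to 30.7 and 29.9 to 33.2 CPM, and Stab2 made up most of that sum (means of 28.2, 26.5, 17.9 and 19.2 CPM), whereas Kdr (0.97, 1.25, 1.91 and 1.498) and Pecam1 (2.77, 2.63, 3.19 and 3.05) had higher means with the scavengers than in FAC. No marker of these lists was at 0 in all libraries, while 2 of 4 lymphocyte markers (Cd3e and Nkg7) were. The part of these other cells in the results below was not tested. In bulk RNA, fewer cells of a type and less RNA per cell cannot be told apart.

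Levels of different genes were compared per kilobase of annotated exon. In control hepatocytes Gstm1 stood highest at 1875 ± 125 CPM per kilobase (mean ± SD, n = 3), next to Gstp1 at 1835 ± 32.7, and these ranges overlapped. Mgst1 followed at 445 ± 4.96, Gstm3 at 274 ± 66.9 and Gstm2 at 129 ± 8.29 CPM per kilobase. Gstt1 (73.5 ± 5.61) and Gsta3 (65.7 ± 4.05) overlapped, and Gsta4 (35.8 ± 5.83), Gstm4 (22.5 ± 1.99) and Gstt2 (5.78 ± 0.473) were lowest, without overlap between neighbours. In FAC the order was the same at both ends, with Gstm1 at 1715 ± 92.9 and Gstp1 at 1679 ± 82.8 CPM per kilobase still overlapping, but Gsta4 (68.9 ± 7.42) stood above Gstt1 (50.7 ± 3.86) and Gsta3 (48.1 ± 1.09). In both pretreated groups Gstm1 lay above Gstp1 without overlap, at 3064 ± 233 against 1998 ± 95.3 in Lip-1+FAC and 2810 ± 330 against 1946 ± 48.7 in MT+FAC. Gstm3 then ranked above Mgst1, at 628 ± 84.3 against 541 ± 60.7 in Lip-1+FAC, where the ranges overlapped, and at 595 ± 116 against 467 ± 42.4 in MT+FAC. The order depended on the transcript length taken. With the longest CCDS-tagged transcript Gstp1 ranked first and Gstm1 second in all 4 groups, at 3460 against 2142 CPM per kilobase in control. In the pretreated groups these ranges overlapped, at means of 3768 against 3502 in Lip-1+FAC and 3669 against 3211 in MT+FAC. On that length Mgst1 stood above Gstm3 in the pretreated groups (933 against 628 in Lip-1+FAC, without overlap, and 806 against 595 in MT+FAC), and Gsta3 stood above Gstt1 in control (196 against 108). In FAC, Gsta3 stood above Gsta4 (143.5 against 89.3) and Gstm2 above Gstm3 (187 against 176), both without overlap. Gsta3 also stood above Gstm2 in Lip-1+FAC (305 against 175) and MT+FAC (259 against 173).

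**Figure D1:**
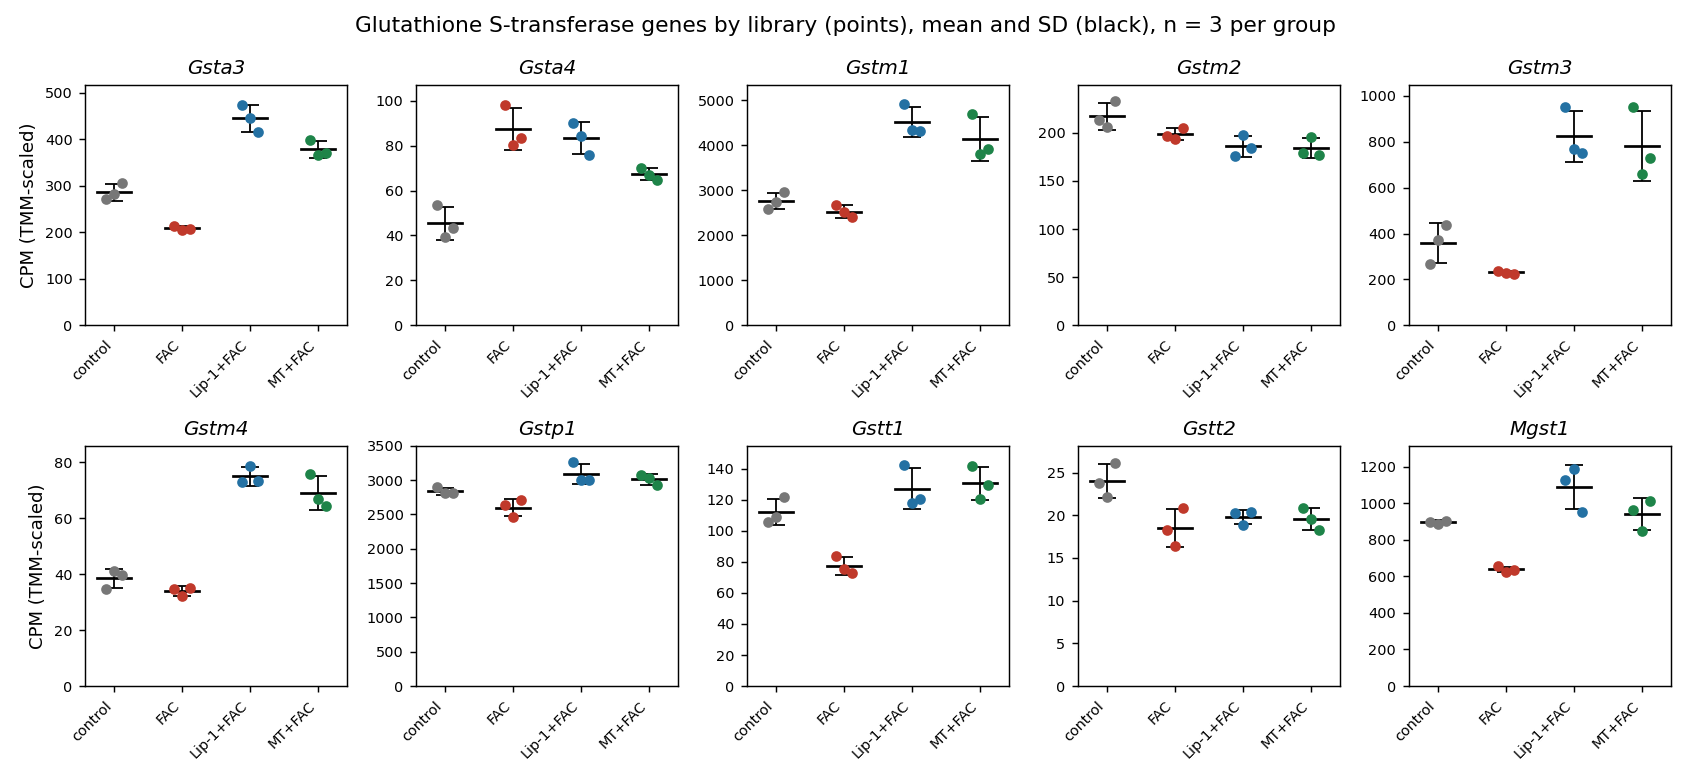
Level of each of the 10 genes in every library (points, CPM, each panel with its own axis from 0) with the group mean and SD (black, n = 3). Gstm3 lies between 661 and 952 CPM in the pretreated libraries and below 440 in the others, whereas Gsta4 is lowest in control, at 39.1 to 53.5 CPM.

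FAC alone lowered 5 of the 10 genes, raised Gsta4 and left the others without a call. A gene was called at a Benjamini-Hochberg adjusted p under 0.05 in edgeR's quasi-likelihood test over all genes tested. The 6 called genes compare with 36.6% called among all genes tested (5 lower against 19.1%, 1 higher against 17.5%). For 8 of the 10 genes the ranges of the groups were apart, against 46.2% of all genes. The median log2 change of the 10 genes was -0.28, against -0.01 over all genes.

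Gsta4, an alpha-class enzyme with a preference for 4-hydroxynonenal and related aldehydes of lipid peroxidation, was the gene that rose. It stood at 53.5, 39.1 and 43.4 CPM in the control libraries and at 98.0, 80.4 and 83.3 CPM in FAC. Every FAC library was above every control library. The rise was 1.92-fold (log2 change 0.94, SE 0.104, adjusted p = 3.58e-06). Gsta3, the other alpha-class gene listed, known for conjugating the epoxide of aflatoxin, went the other way. It stood at 271, 281 and 305 CPM in control and at 214, 205 and 208 CPM in FAC, without overlap, and fell by 0.45 on the log2 scale (SE 0.0611, adjusted p = 1.76e-05). Within a library, 5.06 to 7.19 reads of Gsta3 were counted per read of Gsta4 in control and 2.19 to 2.55 in FAC.

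Both theta-class genes and the microsomal enzyme fell with FAC. Mgst1, which can reduce lipid hydroperoxides with glutathione, stood at 900.2, 885 and 904 CPM in control and at 655, 625 and 637 CPM in FAC. The 3 libraries of either group lay close together and far from the other group, and the fall was 0.49 on the log2 scale (log2 change -0.49, SE 0.0746, adjusted p = 6.22e-05). Gstt1, which acts on small halogenated compounds, went from 106, 109 and 122 CPM to 84.0, 75.8 and 72.6 CPM, and its groups were apart as well (log2 change -0.54, SE 0.0846, adjusted p = 9.23e-05). Gstt2 had the lowest level of the 10 genes per kilobase. Its libraries stood at 23.8, 22.2 and 26.1 CPM in control and at 18.2, 16.4 and 20.8 CPM in FAC, again without overlap (log2 change -0.38, SE 0.102, adjusted p = 0.00675).

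Among the mu-class genes of the 10 studied, a fall with FAC was called for Gstm3 alone, and that call was fragile. Gstm3 stood at 265, 374 and 439 CPM in control and at 238, 229.8 and 225 CPM in FAC. Control replicate 1 was close to the FAC libraries, and the control spread was wide. The log2 change was -0.64 (SE 0.193, adjusted p = 0.0283), and the call held in 10 of 19 alternative analyses. It was lost, among others, without control replicate 2 (adjusted p = 0.0808), without control replicate 3 (log2 change -0.47, adjusted p = 0.0975) and without FAC replicate 1, 2 or 3 (adjusted p = 0.0661, 0.0771 and 0.0746). Summed counts of Gstm1, Gstm3, Gstm6 and Gstm2-ps1, which share some windows, gave -0.17 (adjusted p = 0.135). Gstm1 set most of that sum, so it tells little about Gstm3 alone.

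The remaining 4 genes did not pass the test in FAC against control. Gstm1, a main mu-class enzyme of mouse liver, had a log2 difference of -0.13 (95% interval -0.30 to 0.04, adjusted p = 0.223), and Gstm2 one of -0.13 (-0.26 to 0.00, adjusted p = 0.120). The difference of Gstm4 was -0.18 (-0.35 to -0.01, adjusted p = 0.0910) and that of Gstp1, the pi-class enzyme that is abundant in mouse liver, -0.13 (-0.24 to -0.01, adjusted p = 0.0773). A fall of Gstp1 was called in 3 of 19 alternative analyses, with upper-quartile scaling (-0.14, adjusted p = 0.0474), with plain library sizes (-0.15, adjusted p = 0.0421) and without FAC replicate 3 (-0.16, adjusted p = 0.0443), and a fall of Gstm4 in 1, without control replicate 1 (-0.25, adjusted p = 0.0315).

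Pretreatment with either scavenger raised 7 of the 10 genes above their level in FAC alone: Gsta3, Gstm1, Gstm3, Gstm4, Gstp1, Gstt1 and Mgst1. In Lip-1+FAC against FAC these 7 were all the genes called, compared with 39.9% called among all genes (7 higher against 20.7%, 0 lower against 19.2%), and the groups of 7 genes did not overlap (50.8% of all genes). In MT+FAC against FAC the same 7 were higher (21.2% of all genes) and Gsta4 was lower (19.7%), 8 called in all against 40.9%, and 8 had groups that did not overlap (52.9%). The median log2 change of the 10 genes was 0.74 with Lip-1 and 0.64 with MT, against 0.00 over all genes in both. Both comparisons use the same FAC libraries, so that they are not independent of each other. All of these calls held in 19 of 19 alternative analyses.

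**Figure D2:**
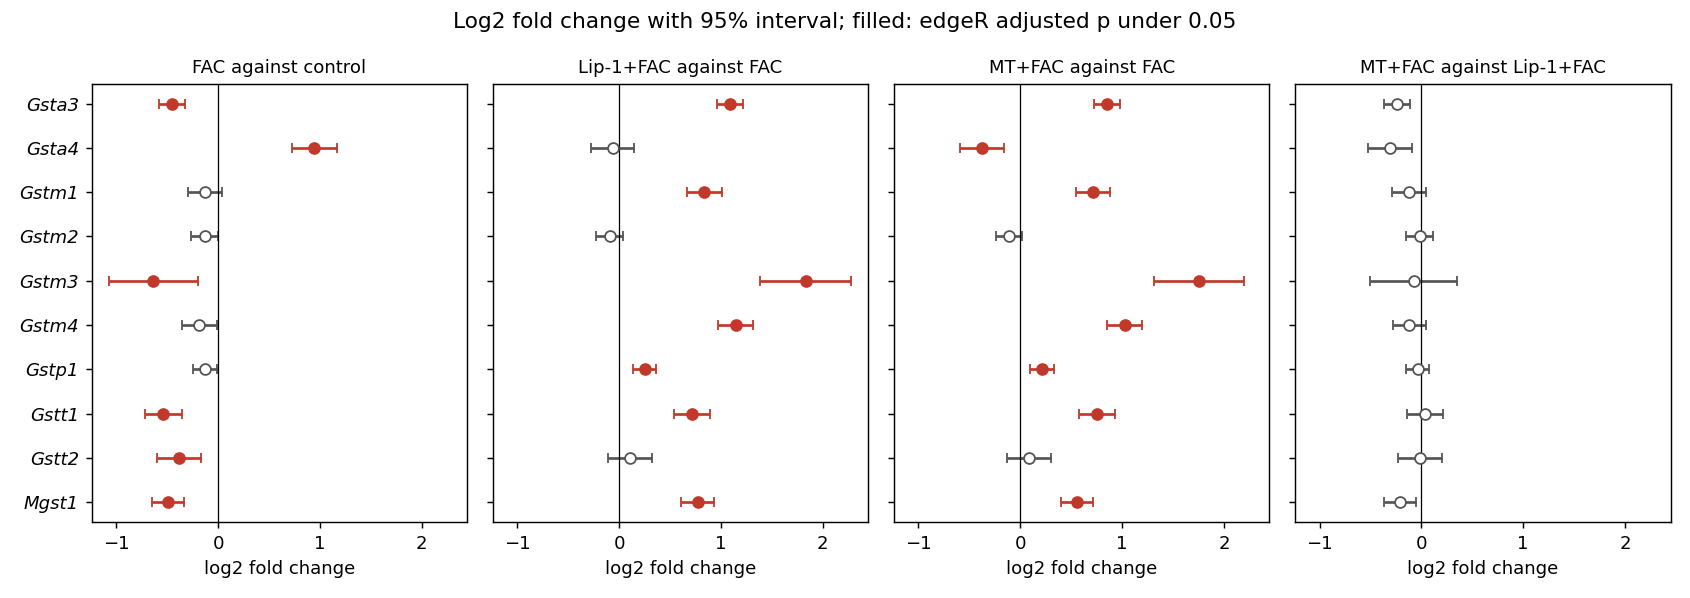
Log2 fold change of each gene (points) with its 95% interval (bars) in 4 comparisons, filled where edgeR's adjusted p was under 0.05. With Lip-1, 7 genes lie right of 0 against FAC, from 0.25 (Gstp1) to 1.83 (Gstm3), and no gene is filled in MT+FAC against Lip-1+FAC.

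Gstm3 had the largest increase of the 10 genes in both comparisons. It stood at 950.4, 771 and 749 CPM in Lip-1+FAC and at 952, 661 and 728 CPM in MT+FAC. All 6 pretreated libraries were above all FAC and control libraries. The rise over FAC was 3.56-fold with Lip-1 (log2 change 1.83, SE 0.197, adjusted p = 6.88e-05) and 3.38-fold with MT (1.76, SE 0.197, adjusted p = 0.000102). When its counts were summed with those of Gstm1, Gstm6 and Gstm2-ps1, the log2 change of the sum was 0.95 with Lip-1 and 0.83 with MT, the level of the sum being set mostly by Gstm1.

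Gstm4 had 34.6, 41.1 and 39.6 CPM in the control libraries, 34.7, 32.0 and 35.1 in those of FAC, 72.8, 78.7 and 73.2 in those of Lip-1+FAC and 75.9, 66.7 and 64.4 in those of MT+FAC. Control and FAC overlapped, and all pretreated libraries lay above both. Its increase over FAC was 2.21-fold with Lip-1 (log2 change 1.14, SE 0.0810, adjusted p = 1.1e-08) and 2.04-fold with MT (1.03, SE 0.0809, adjusted p = 5.71e-08).

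Gstm1 carried the largest number of reads in the class. It had 2592, 2735 and 2958 CPM in the control libraries, 2670.0, 2510.45 and 2398 in those of FAC, 4909, 4328 and 4303 in those of Lip-1+FAC and 4698, 3807 and 3913 in those of MT+FAC. The pretreated libraries were again above all others. The increase over FAC was 1.79-fold with Lip-1 (log2 change 0.84, SE 0.0800, adjusted p = 3.88e-07) and 1.64-fold with MT (0.71, SE 0.0799, adjusted p = 2.76e-06).

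Gstm2, which lies between Gstm3 and Gstm1 on the chromosome, did not follow its neighbours. It had 213, 206 and 233 CPM in the control libraries, 197, 194 and 205 in those of FAC, 176, 198 and 184 in those of Lip-1+FAC and 179, 196 and 177 in those of MT+FAC. The pretreated groups overlapped with FAC. The log2 difference from FAC was -0.09 with Lip-1 (95% interval -0.23 to 0.04, adjusted p = 0.249) and -0.11 with MT (-0.24 to 0.02, adjusted p = 0.172). With offsets for GC content and length the difference with Lip-1 was 0.02 (SE 0.0566). Within a library, 11.7 to 13.6 reads of Gstm1 were counted per read of Gstm2 in FAC and 12.2 to 13.3 in control, against 21.9 to 27.8 in Lip-1+FAC and 19.4 to 26.3 in MT+FAC. This ratio does not depend on how libraries were scaled, and shows unequal change of both genes.

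The 7 mu-class genes lie side by side at chr3:107895821-108044894 (GRCm38), in the order Gstm5, Gstm7, Gstm6, Gstm3, Gstm2, Gstm1 and Gstm4. Along this order the log2 changes of Lip-1+FAC against FAC were 0.08, 0.94, 0.69, 1.83, -0.09, 0.84 and 1.14, and those of MT+FAC against FAC 0.07, 0.98, 0.55, 1.76, -0.11, 0.71 and 1.03. Gstm5 at one end (adjusted p = 0.549 and 0.600) and Gstm2 in the middle were not called in either comparison, and the other 5 were called higher in both. In FAC against control, Gstm7 (log2 change -0.65, adjusted p = 0.000476) and Gstm3 were lower, and the other 5 were not called.

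**Figure D3:**
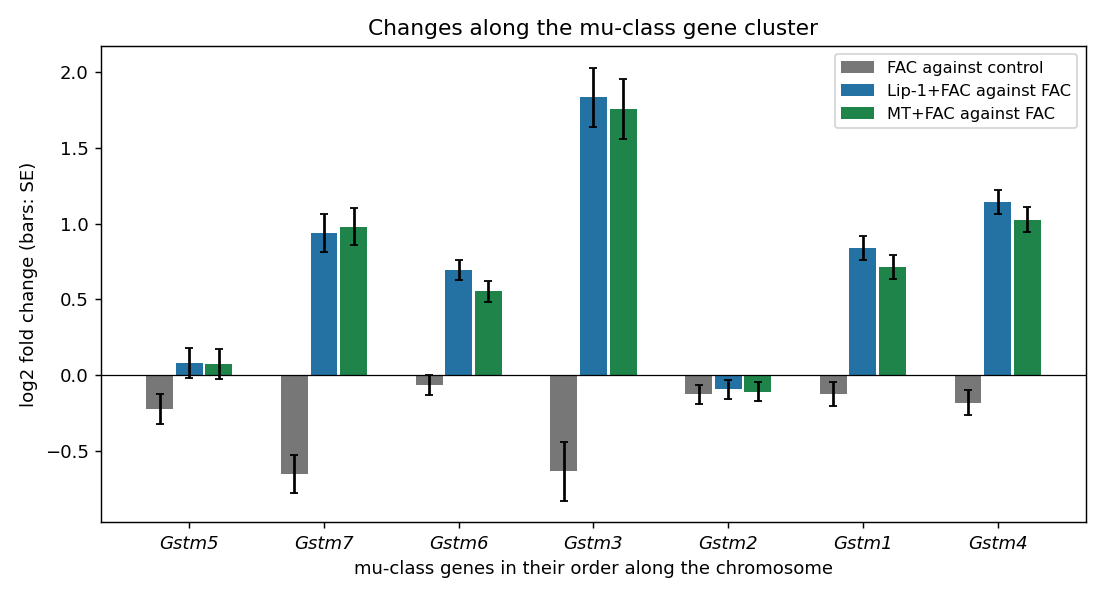
Log2 fold change (bars from 0, with SE) of the 7 mu-class genes in their order along chromosome 3, for FAC against control (grey), Lip-1+FAC against FAC (blue) and MT+FAC against FAC (green). Gstm3 has the tallest bars, at 1.83 and 1.76, while Gstm5 and Gstm2 stay within 0.11 of 0 in the 2 comparisons of a pretreated group with FAC.

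Among the 10 genes, Gsta3 rose most outside the mu class. It stood at 474, 445 and 416 CPM in Lip-1+FAC and at 399, 366 and 369 CPM in MT+FAC, where the FAC libraries had 205 to 214. Groups did not overlap, and the increase was 2.13-fold with Lip-1 (log2 change 1.09, SE 0.0615, adjusted p = 9.49e-10) and 1.81-fold with MT (0.86, SE 0.0613, adjusted p = 2.41e-08). Mgst1 reached 1126, 1189 and 953 CPM in Lip-1+FAC and 964, 846 and 1013 CPM in MT+FAC. These libraries were all above the FAC libraries, with a 1.70-fold increase with Lip-1 (log2 change 0.77, SE 0.0748, adjusted p = 4.11e-07) and a 1.47-fold increase with MT (0.56, SE 0.0746, adjusted p = 1.62e-05).

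Of the theta-class pair, 1 gene rose and the other did not pass the test. Gstt1 stood at 142.6, 118 and 121 CPM in Lip-1+FAC and at 141.9, 120.3 and 129.8 CPM in MT+FAC, above its FAC libraries in every case (log2 change 0.72, SE 0.0846, adjusted p = 3.62e-06 with Lip-1, and 0.75, SE 0.0845, adjusted p = 2.65e-06 with MT). Gstt2 stood at 20.2, 18.9 and 20.4 CPM and at 20.9, 19.5 and 18.3 CPM in these groups, which overlapped with FAC. Its log2 difference from FAC was 0.11 with Lip-1 (95% interval -0.11 to 0.32, adjusted p = 0.428) and 0.09 with MT (-0.13 to 0.31, adjusted p = 0.511).

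Gstp1 rose by the smallest amount. It had 2899, 2816 and 2806 CPM in the control libraries, 2637, 2457 and 2706 in those of FAC, 3264, 3008 and 3008 in those of Lip-1+FAC and 3079.75, 3025 and 2931 in those of MT+FAC. Pretreated libraries were above FAC without overlap, by a log2 change of 0.25 with Lip-1 (SE 0.0547, adjusted p = 0.00138) and 0.21 with MT (SE 0.0547, adjusted p = 0.00486). With offsets for GC content and transcript length the changes were 0.49 and 0.39.

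Gsta4 was the exception in the other direction. It stood at 89.9, 84.1 and 76.0 CPM in Lip-1+FAC and at 70.1, 67.0 and 64.6 CPM in MT+FAC. The Lip-1+FAC libraries overlapped with FAC, and their log2 difference was -0.06 (95% interval -0.28 to 0.15, adjusted p = 0.641). The MT+FAC libraries were all below the FAC libraries and above the control libraries, and Gsta4 fell by 0.37 against FAC (log2 change -0.37, SE 0.102, adjusted p = 0.00795). With offsets for GC content and length the change was -0.23 (adjusted p = 0.0484). The shares of mitochondrially encoded counts also differed between these groups, with 0.95% to 1.21% in control, 1.15% to 1.23% in FAC, 0.72% to 0.80% in Lip-1+FAC and 0.64% to 0.71% in MT+FAC. Its part in these results was not tested.

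A direct test of MT+FAC against Lip-1+FAC asked whether the scavengers differed. None of the 10 genes was called by edgeR, against 1.34% of all genes (182 genes). At an unadjusted p under 0.05 there were 3, Gsta3, Gsta4 and Mgst1, all lower with MT, and DESeq2 called 1. The groups of 2 genes, Gsta3 and Gsta4, did not overlap, against 19.8% of all genes. The log2 difference of Gsta3 was -0.24 (95% interval -0.36 to -0.11, adjusted p = 0.0621), that of Gsta4 -0.31 (-0.53 to -0.09, adjusted p = 0.163) and that of Mgst1 -0.21 (-0.37 to -0.05, adjusted p = 0.196). For Gstm3 the interval was wide (-0.08, -0.51 to 0.35). The other 6 genes had differences between -0.12 and 0.04, with intervals that lay between -0.292 and 0.215. A fall of Gsta4 was thus called against FAC for MT and not for Lip-1, but the difference between the scavengers did not pass the test.

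Against untreated control, the pretreated groups did not simply return to the control level. In Lip-1+FAC 6 genes were higher (15.4% of all genes) and Gstm2 was lower (14.8%), 7 called in all against 30.2%, with 9 of 10 genes without overlap (43.3%). In MT+FAC 5 genes were higher (9.72%) and Gstm2 was lower (10.1%), 6 called in all against 19.8%, with 8 of 10 without overlap (38.2%). Gsta3, Gsta4, Gstm1, Gstm3 and Gstm4 were higher than control in both. Their log2 changes were 0.64, 0.88, 0.71, 1.196 and 0.96 with Lip-1, and 0.40, 0.57, 0.58, 1.12 and 0.84 with MT. When counts of Gstm3 were summed with those of Gstm1, Gstm6 and Gstm2-ps1, the sum changed by 0.77 and 0.65. Gstm1 set most of that sum. The median over the 10 genes was 0.46 with Lip-1 and 0.31 with MT, against -0.02 and 0.00 over all genes.

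Mgst1 was called higher than control with Lip-1 (log2 change 0.28, adjusted p = 0.00836) but not without Lip-1+FAC replicate 2 (0.22, adjusted p = 0.0530), and with MT its difference was 0.07 (95% interval -0.09 to 0.23, adjusted p = 0.551). Gstm2 was lower by 0.22 with Lip-1 (log2 change -0.22, adjusted p = 0.0124) and by 0.24 with MT (-0.24, adjusted p = 0.0121), calls that were lost without control replicate 3 (-0.17 and -0.19) and with offsets for GC content and length (-0.04 and -0.10). They were also lost without Lip-1+FAC replicate 1 (-0.18) and without MT+FAC replicate 3 (-0.21), respectively. Gstt1, Gstt2 and Gstp1 were not called against control in either group in the test of all 12 libraries. The differences of Gstt1 were 0.18 (0.00 to 0.36) and 0.22 (0.04 to 0.40), those of Gstt2 -0.28 (-0.49 to -0.06) and -0.29 (-0.51 to -0.08), and those of Gstp1 0.12 (0.01 to 0.24) and 0.08 (-0.03 to 0.20), for Lip-1 and MT. With the offsets, Gstt1 (0.42 and 0.40) and Gstp1 (0.37 and 0.26) were called higher than control in both groups, and Gstt2 was called lower with MT (-0.30, adjusted p = 0.0416). Gstt2 was called lower than control in 7 of 19 alternative analyses with either scavenger, at differences of -0.33 to -0.21 with Lip-1 and -0.35 to -0.23 with MT over all 19. Gstt1 was called higher in 4 of 19 with either, and Gstp1 in 3 with Lip-1 and 2 with MT.

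Summed over the 10 genes, reads of these GSTs amounted to 7581 ± 267 CPM in control cells, 6621 ± 212 under FAC, 10456 ± 686 with Lip-1 and FAC, and 9721 ± 753 with MT and FAC (mean ± SD, n = 3). These sums are given without a test, since the genes were chosen with results known. The mu-class genes went from 3377 ± 283 CPM in control and 2990 ± 139.9 in FAC to 5598 ± 443 and 5173 ± 638 CPM in the pretreated groups. Gstp1 accounted for 2840 ± 50.6, 2600 ± 128, 3093 ± 147.5 and 3012 ± 75.5 CPM in the same order.

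**Figure D4:**
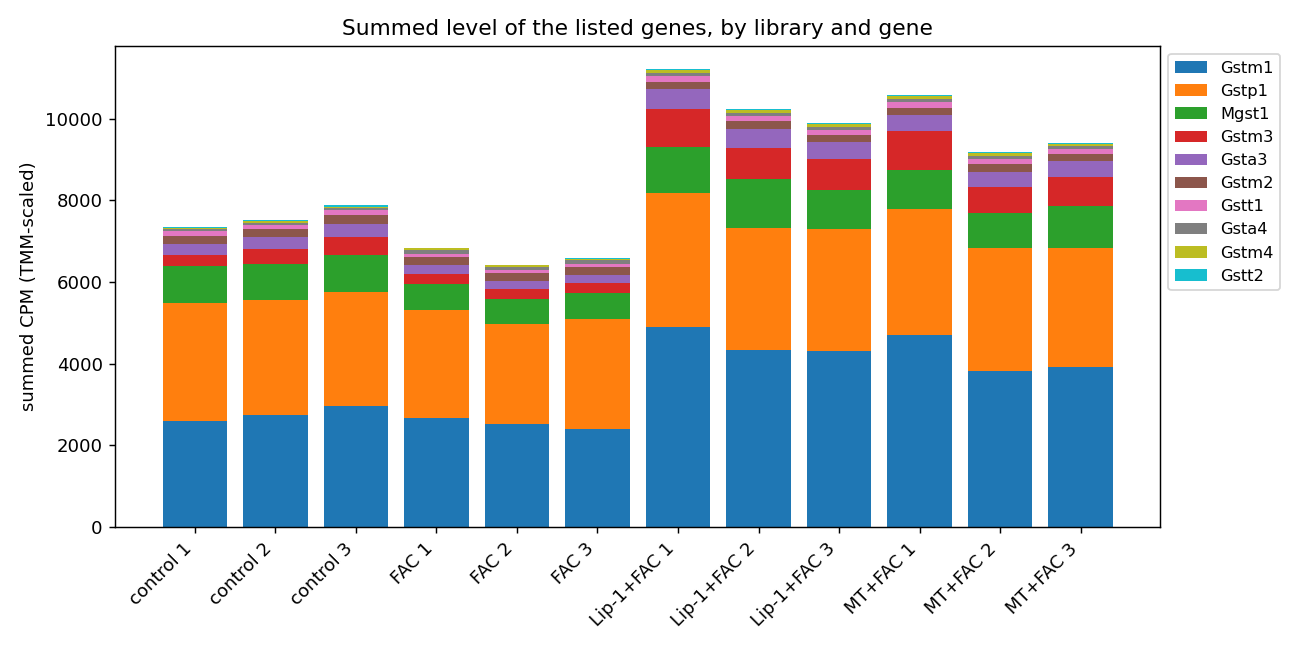
Summed CPM of the 10 genes in each library (stacked bars from 0), coloured by gene. The bars reach 7358 to 7876 CPM in control, 6426 to 6846 in FAC and 9176 to 11225 CPM in the pretreated libraries.

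Of 27 other genes listed for the GST superfamily, 25 had an identifier in the files and 18 were tested. Their counts, and those of the next lists, stand beside 17.5% higher and 19.1% lower with FAC, 20.7% and 19.2% with Lip-1 and 21.2% and 19.7% with MT among all genes. With FAC 6 were higher and 6 lower than control (median log2 change -0.12), with Lip-1 8 were higher and 6 lower than FAC (median 0.17), and with MT 7 were higher and 5 lower than FAC (median 0.15). Gsta1 and Gsta2, alpha-class genes of which 81.8% and 35.0% of windows occurred in another gene (each other, Gm10639 or Gm3776), rose with the scavengers. Gsta2 averaged 8.70 ± 0.247 CPM in control cells, 12.8 ± 0.808 under FAC, 38.3 ± 5.05 with Lip-1 and FAC and 25.5 ± 2.43 with MT and FAC (log2 change against FAC 1.59, adjusted p = 5.49e-09, and 1.00, adjusted p = 1.28e-06). Gsta1 was already higher in FAC than in control (0.81, adjusted p = 1.29e-06). Gstz1, the zeta-class enzyme that isomerizes maleylacetoacetate in tyrosine breakdown, was lower with FAC (-0.85, adjusted p = 2.18e-07) and higher with Lip-1 (1.03, adjusted p = 2.5e-08) and with MT (1.014, adjusted p = 4.48e-08) than in FAC. Clic1, a chloride channel protein with a GST fold, showed the reverse order, 0.68 with FAC, then -1.13 and -1.03 against FAC (adjusted p = 7.24e-05, 3.59e-07 and 1.17e-06).

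Most genes listed for the synthesis, breakdown and recycling of glutathione were called in each of these 3 comparisons. Of 16 genes, 7 were higher and 4 lower with FAC than in control (median -0.04), 8 higher and 4 lower in Lip-1+FAC than in FAC (median 0.23), and 7 higher and 4 lower in MT+FAC than in FAC (median 0.20). Slc7a11, the cystine importer that feeds glutathione synthesis, averaged 13.3 ± 1.37 CPM in control cells, 51.8 ± 3.20 under FAC, 110 ± 4.33 with Lip-1 and FAC and 72.6 ± 7.09 with MT and FAC. It rose with FAC (log2 change 1.96, adjusted p = 9.13e-11) and again with Lip-1 against FAC (1.09, adjusted p = 2.13e-08). Chac1, which degrades glutathione, rose with FAC (0.87, adjusted p = 7.58e-07) and was lower with Lip-1 (-0.72, adjusted p = 4.48e-06). Mat1a, which makes S-adenosylmethionine in the path from methionine to cysteine, fell with FAC (-0.58, adjusted p = 0.00749) and was higher with Lip-1 (1.02, adjusted p = 0.000152) and MT (1.10, adjusted p = 9.53e-05).

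Among the 20 tested genes for export of glutathione conjugates and the mercapturate pathway, 4 were higher and 6 lower with FAC (median -0.14), and 7 were higher and 2 lower with either scavenger against FAC (medians 0.07 and 0.13). Abcc2, the canalicular pump for glutathione conjugates, rose with Lip-1 (log2 change 1.13, adjusted p = 6.72e-09), and Abcc4, a pump of the basolateral membrane, with Lip-1 (1.47, adjusted p = 3.8e-05) and with MT (0.88, adjusted p = 0.00435). Abcc1, which also exports glutathione conjugates, rose with FAC (1.87, adjusted p = 4.01e-07) from 2.75 ± 0.358 to 10.1 ± 1.10 CPM and was lower than FAC with Lip-1 (-0.69, adjusted p = 0.00319) and MT (-0.61, adjusted p = 0.00679).

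The genes whose profiles were most like those of the 3 GST genes with the widest range were found by the root-mean-square difference of centred log2 CPM over the 12 libraries, among 8998 protein-coding genes. Nearest to Gstm3 were the fatty acid transporter Cd36 (0.18), the aldo-keto reductase Akr1c14 (0.19) and the macrophage perforin Mpeg1 (0.19), where the median over candidates was 0.80. Nearest to Gstm4 were Mapre2 (0.11), Pir (0.13) and Gas6 (0.13), with a median of 0.52. Nearest to Gsta3 were the acetyl-CoA synthetase Acss2 (0.08), the quinone reductase Nqo2 (0.09) and the complement regulator C4bp (0.09), with a median of 0.44. These values describe likeness across the same libraries and carry no test. Mpeg1 is a macrophage gene, and it rose with Lip-1 against FAC (log2 change 1.87, adjusted p = 1.55e-07) in the same comparison in which the macrophage marker Lyz2 was higher (0.63, adjusted p = 0.0291, lost in 5 alternatives) and Cd68 lower (-1.25, adjusted p = 1.62e-07). Of the 9 tested macrophage markers 1 was higher, 2 were lower and 6 were not called there.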

How the data were processed

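Total RNA (10 ng) of each of the 12 hepatocyte samples was turned into cDNA with SMART-Seq v4, made into libraries with Nextera XT and sequenced in paired reads of 100 bases, per the labels' protocols. The deposited files hold whole-number counts of reads per gene, not normalized, in the layout of STAR, and the build is GRCm38, per the submitters' processing notes. The aligner and annotation versions are not given in the sources used here. The unstranded column was used, because the first strand held 49.9% to 50.0% of stranded counts. Lines for unmapped, multimapping, ambiguous (5.16% to 5.71% of reads) and no-feature reads stayed out. No-feature reads made up 2.92% to 3.14% in FAC and 2.27% to 2.56% in the other groups. Unmapped reads made up 6.02% to 6.75% in the pretreated groups and 6.94% to 10.1% in control and FAC. The part of these differences in the results was not tested.

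Of 55487 identifiers, 55227 matched the supplied GRCm38 annotation, which gave names, positions and lengths. edgeR 4.0.16 in R 4.3.3 (filterByExpr, TMM factors 0.989 to 1.01, robust quasi-likelihood fit of 4 group means, 8 residual degrees of freedom) tested 13535 genes in 6 comparisons. P-values are two-sided and Benjamini-Hochberg adjusted, intervals are 95%, and the biological coefficient of variation was 9.71%. The test was also run on simulated counts, and the outcome is not given here. The genes and lists were chosen with earlier results of these data known. All 10 GST genes are reported, and from each other list the 2 largest called rises and falls of a comparison could be named. Alternatives changed scaling, the filter, the test (DESeq2 1.42.0), the libraries, depth, GC content and length offsets, and the counting of paralogs. Proteins were not analysed here.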

Additional observations from a re-analysis of the deposited data

Results flagged for a closer look

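Lip-1+FAC and MT+FAC were compared directly, and all genes called in the lists around the GST genes were lower with MT in edgeR's test. By list, 2 other GST genes, 4 glutathione supply genes, 2 conjugate export genes, 1 regulator and 0 other conjugating enzymes were called. At most the 2 largest falls of a list are named here, which gives 7 genes. They are the alpha-class genes Gsta1 (log2 difference -0.37, adjusted p = 0.0324) and Gsta2 (-0.59, adjusted p = 0.00569), the cystine importer Slc7a11 (-0.60, adjusted p = 0.000579), the NADPH-producing isocitrate dehydrogenase Idh1 (-0.35, adjusted p = 0.00641), the canalicular pump Abcc2 (-0.60, adjusted p = 0.000313), the kynurenine aminotransferase Kyat3 (-0.36, adjusted p = 0.0324) and the small MAF protein Maff (-0.50, adjusted p = 0.0191). For each gene every MT+FAC library was below every Lip-1+FAC library. Among all genes 0.879% were called lower with MT. The calls of Slc7a11, Idh1 and Abcc2 held in the analyses that left out a library. That of Gsta2 was lost without Lip-1+FAC replicate 1 (-0.49, adjusted p = 0.0519). Gsta1 was lost without Lip-1+FAC replicate 1 or 2 or any MT+FAC replicate (-0.33 to -0.39) and with the replicate block (-0.37, adjusted p = 0.0534), Kyat3 without Lip-1+FAC replicate 1 or 3 or MT+FAC replicate 2 or 3 (-0.28 to -0.38), and Maff without Lip-1+FAC replicate 1 or 2 or MT+FAC replicate 1 or 3 (-0.46 to -0.50). Counts of Gsta1 and Gsta2 are uncertain because of sequence they share with other genes.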

How the results depend on the processing

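The number of GST genes called stayed at 7 (Lip-1+FAC against FAC) and 8 (MT+FAC against FAC) in all alternatives. Leaving out single libraries gave 5 to 7 in FAC against control, 0 to 2 in MT+FAC against Lip-1+FAC, 6 to 8 in Lip-1+FAC against control and 5 to 7 in MT+FAC against control. In MT+FAC against Lip-1+FAC, where 0 were called, 3 were called without a filter on low counts, 1 by DESeq2, 1 with the 2 groups alone, 1 with the replicate block plus GC content and length offsets, and 2 without Lip-1+FAC replicate 3. Over all genes this comparison had 182 calls, against 477 without the filter, 462 by DESeq2, 312 with the 2 groups alone, and 76, 77, 86 and 74 without Lip-1+FAC replicate 1, Lip-1+FAC replicate 2, MT+FAC replicate 2 and MT+FAC replicate 3. The causes were not tested.

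A check for pairing by replicate number showed no clear pairs. Same-numbered libraries correlated at -0.25 to 0.16 in their deviations from group means, and 4 of 12 correlated best with their own number. With 3 libraries per group this check cannot exclude pairing, and the labels do not say what the numbers mark. With the replicate number as a block, 5, 7, 8, 0, 8 and 6 GST genes were called (FAC against control, Lip-1+FAC and MT+FAC against FAC, MT+FAC against Lip-1+FAC, Lip-1+FAC and MT+FAC against control), and Gstm3 in FAC against control had an adjusted p of 0.0504.

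Differences that changed sign were near 0 and not called in either analysis. In Lip-1+FAC against FAC, the GC content and length offsets gave 0.0789 for Gsta4 and 0.0197 for Gstm2, and with the replicate block added 0.0805 and 0.0189. Gsta4 there ranged from -0.118 to 0.0346 over the left-out libraries. In MT+FAC against FAC, Gstt2 was -0.00196 with the offsets. In MT+FAC against Lip-1+FAC, Gstt1 was -0.0225 with the offsets and -0.0224 with the block added, Gstm2 was 0.000316 with upper-quartile scaling, and plain library sizes gave 0.00438 for Gstm2 and 0.00436 for Gstt2. Over the left-out libraries the ranges there were -0.0779 to 0.0279 for Gstm2, -0.241 to 0.0356 for Gstm3, -0.0203 to 0.126 for Gstt1 and -0.0629 to 0.0260 for Gstt2. In the order of levels, the transcript length was chosen as an alternative after the data were seen. In control it moved Gstp1 from rank 2 to 1, Gstm1 from 1 to 2, Gsta3 from 7 to 6 and Gstt1 from 6 to 7. Counts of Gstt2 were low, and reads that may be lost to copies of Gstp1 limit what its level can tell. In FAC against control the SE of the log2 change was largest for Gstm3 (0.193), against 0.102 for Gstt2 and 0.0547 for Gstp1.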

Other observations

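Regulators known to act on GST genes were called in both directions. Of 18 such genes, 6 were higher and 4 lower with FAC than in control (median log2 change -0.01), 2 higher and 7 lower in Lip-1+FAC than in FAC (median -0.09), and 3 higher and 8 lower in MT+FAC than in FAC (median -0.21). Among all genes 17.5% were higher and 19.1% lower with FAC, 20.7% and 19.2% with Lip-1 and 21.2% and 19.7% with MT, so that some of these counts lie near or below the background. Maff, a small MAF partner of NRF2, rose from 23.8 ± 4.32 CPM in control to 73.7 ± 3.42 in FAC (log2 change 1.64, adjusted p = 3.51e-09) and was lower than FAC in Lip-1+FAC (35.9 ± 1.31 CPM, -1.04, adjusted p = 2.96e-07) and MT+FAC (25.4 ± 1.44 CPM, -1.54, adjusted p = 9.4e-09). Bach1, a repressor at antioxidant response elements, rose with FAC (1.14, adjusted p = 1.09e-05) and was lower with MT than with FAC alone (-0.82, adjusted p = 0.00021). Nfe2l2, which encodes NRF2, fell with FAC (-0.29, adjusted p = 0.00252) and was higher than FAC in MT+FAC (0.23, adjusted p = 0.011) and in Lip-1+FAC (0.20, adjusted p = 0.0261), the first 2 comparisons being named after their values were seen. The call with FAC held in 19 of 19 alternative analyses, and that with MT was lost with GC content and length offsets (0.13, adjusted p = 0.137) and without MT+FAC replicate 3 (0.19, adjusted p = 0.0633). The call with Lip-1 was lost with GC content and length offsets (0.09, adjusted p = 0.277) and without FAC replicate 1 or 3 or Lip-1+FAC replicate 2 or 3 (0.16 to 0.21). Nr1i2, the pregnane X receptor, fell with FAC (-0.99, adjusted p = 5.46e-06) and was higher in MT+FAC than in FAC (0.64, adjusted p = 0.00041).

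Other conjugating and carbonyl-reducing enzymes were called higher more often than lower with the scavengers. Of 22 genes, 3 were higher and 7 lower with FAC (median -0.15), 13 were higher and 2 lower with Lip-1 against FAC (median 0.43), and 14 higher and 3 lower with MT against FAC (median 0.41), beside the same shares among all genes. Nqo1, the quinone reductase often used as a readout of NRF2, averaged 9.07 ± 1.95 CPM in control cells, 12.2 ± 0.402 under FAC, 32.8 ± 0.992 with Lip-1 and FAC and 26.4 ± 0.624 with MT and FAC, and rose with Lip-1 against FAC (log2 change 1.42, adjusted p = 4.75e-08). Cbr3, a carbonyl reductase, rose with Lip-1 (1.60, adjusted p = 1.99e-06) and MT (1.27, adjusted p = 3.04e-05) against FAC. Ugt1a1, which glucuronidates bilirubin, was lower in both pretreated groups than in FAC (-1.13, adjusted p = 0.00486, and -1.21, adjusted p = 0.00333), at 19.5 ± 5.25 and 18.5 ± 2.78 CPM against 42.9 ± 6.32. Its counts are uncertain, since the Ugt1a genes share exons.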
